A study of Mus musculus with 9 samples.

Results

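The genes described here are those that set the pace of the G1 phase of the cell cycle: the D-type cyclins Ccnd1, Ccnd2 and Ccnd3, their partner kinases Cdk4 and Cdk6, the E-type cyclins Ccne1 and Ccne2, and the INK4 inhibitors Cdkn2a, Cdkn2b and Cdkn2c. They were chosen by name, 10 of the 47643 genes in the count files. Pancreatic ductal adenocarcinoma (PDAC) cells were sorted from mouse tumors and their RNA was sequenced in 9 libraries. In 6 of them the cells were GFP+Yap+, from KPF mice, and in the other 3 they were Tm+Yap-, from the KPYYF genotype. KPF mice carried Trp53 frt/+ and Pdx1-Flp together with R26 FSF-CreER/Dual. KPYYF mice carried the same alleles and Yap flox/flox. Flp recombinase, driven by the Pdx1 promoter of pancreatic progenitors, removed 1 copy of Trp53 and marked the cells with EGFP. Mice of both groups were given a tamoxifen (TAM) diet. By design, TAM let CreER turn the reporter from EGFP to tdTomato (Tm) in tumor cells of both groups, and delete floxed Yap in KPYYF cells. The GFP+ cells of KPF mice were thus cells whose reporter had not switched. Both groups shared the frt allele of Trp53, and genotype, Yap status, reporter color and recombination of the reporter changed together between them. The Tm+Yap- cells came from tumors that had relapsed after Yap deletion. The labels name each library by a mouse number, give no age or sex, and put KPF libraries 4504h and 4504s under 1 number.

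In G1, growth signals raise D-type cyclins, which bind CDK4 or CDK6 and begin to phosphorylate the retinoblastoma protein RB. RB then releases E2F factors, which drive cyclin E, CDK2 activity and the genes of DNA replication. INK4 proteins bind CDK4 and CDK6 and hold this step back. In pancreatic cancer, CDKN2A is among the most often inactivated tumor suppressor genes, through loss of INK4A or of ARF, the second product of that gene.

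The values are CPM, read counts brought to a common library size with TMM factors, which correct for differences in composition. A fold change is the log2 ratio of KPYYF over KPF from edgeR's quasi-likelihood test, with a standard error (SE). P values were adjusted by the Benjamini-Hochberg method across the 14105 genes whose reads summed to at least 100, with a threshold of 0.05. A second test of each member, an exact two-sided permutation test of log2 CPM over all 84 assignments of the 9 libraries to groups of 6 and 3, has a smallest possible p of 0.0119. The libraries held 8116539 to 9635514 reads on genes, so that 3 reads, the limit that a count of 0 allows, equal 0.291 to 0.436 CPM. Without molecular identifiers several reads can come from 1 molecule, so such limits cover counting error only. Reads came from the 3′ end of transcripts, so levels of different genes are not set against each other, and ratios between genes are compared only across libraries.

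Yap1 (ENSMUSG00000053110), the deleted gene, was at 41.7 to 150 CPM in the 6 KPF libraries, and at 0.71, 2.84 and 7.10 CPM in KPYYF libraries 4449, 4891 and 4938. The groups did not overlap, with a log2 fold change of -4.79 (SE 0.72, adjusted p = 0.0159 in edgeR's test). With KPYYF 4891 left out, the adjusted p of Yap1 became 0.0553. Markers of PDAC epithelium were lower in the KPYYF libraries for 7 of 8 genes, of which Muc1, Cdh1 and Krt18 had an adjusted p under 0.05. At that threshold 0.794% of all genes tested were lower. The epithelial markers summed to 3200 to 8890 CPM in KPF and 561 to 1580 CPM in KPYYF libraries. Summed immune markers reached 7220 CPM in KPF library 4601, against 322 to 1220 CPM in the other 8 libraries, and Cd3e had too few reads to test. Summed acinar markers reached 14900 CPM in KPF library 4504s and 4010 CPM in KPYYF library 4449, against 36.5 to 741 CPM elsewhere. Fibroblast markers summed to 304 to 4190 CPM in KPF and 431 to 2140 CPM in KPYYF libraries, and endothelial markers to 10.9 to 55.6 and 10.3 to 14.9 CPM. Of 8 fibroblast markers 4 were higher and 4 lower, with log2 fold changes from -2.65 for Acta2 to 2.90 for Pdgfra. None of them passed the adjusted threshold. Islet markers summed to 0.51 to 52.7 CPM in KPF and 2.62 to 11.1 CPM in KPYYF libraries. Schwann cell markers summed to 18.1 to 96.7 and 0.545 to 7.34 CPM, with S100b alone reaching the number of reads needed for a test. S100b had a log2 fold change of -3.84 (adjusted p = 0.0357 in edgeR's test). In such bulk libraries, fewer cells of a type and less RNA per cell cannot be told apart, and the part of these differences in the values below was not tested.

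None of the 10 G1 genes passed the test between the groups. All 10 had enough reads to be tested, 6 were higher and 4 lower in KPYYF libraries, and their median log2 fold change was 0.38, against -0.07 over all genes tested. That median was 0.055 without KPYYF 4938 and 0.093 in the 6 libraries with at least 1000 reads of Xist, a transcript made from the inactive X. In edgeR's test 0 of 10 had an adjusted p under 0.05 in either direction, where 0.305% of all genes tested were higher and 0.794% were lower at that threshold. At an unadjusted p under 0.05, 2 members were higher, Cdkn2a and Ccnd3, and 0 were lower, beside 6.10% and 10% of all genes tested. Without KPYYF 4891 no member had an unadjusted p under 0.05. The DESeq2 Wald test, which called 1.96% of its genes higher and 6.75% lower at an adjusted p under 0.05, and limma-voom, with 0.305% and 0.312%, also gave 0 of 10. In all 10 genes the groups overlapped. Among all genes tested, 3.92% did not overlap with KPYYF higher and 5.18% with KPYYF lower.

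**Figure D1:**
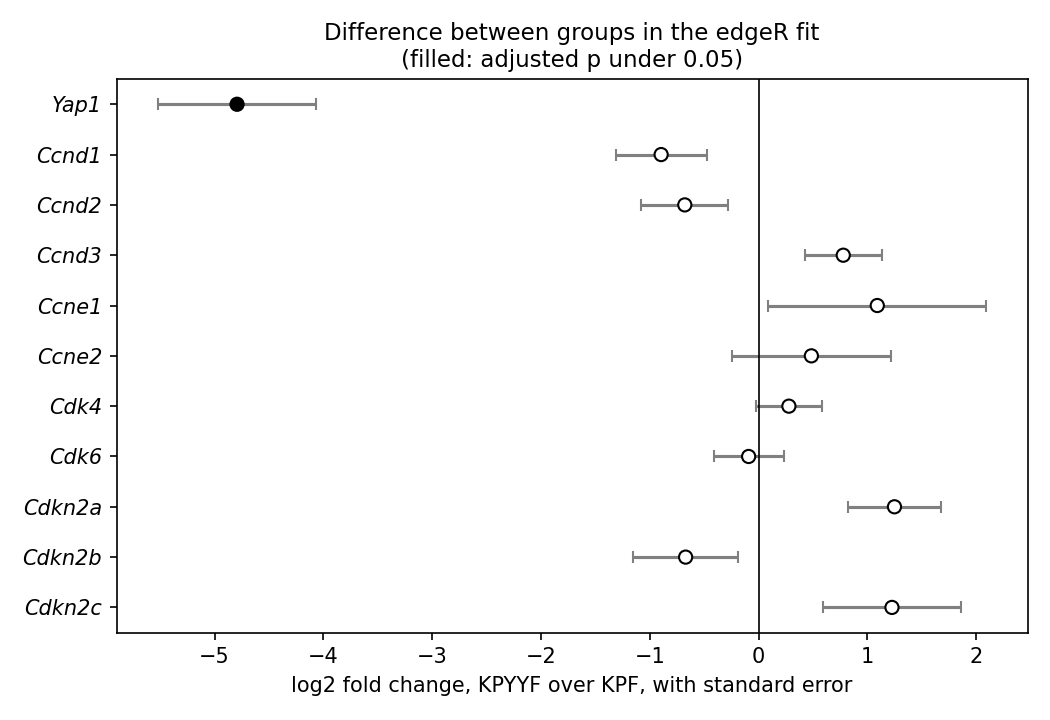
Log2 fold change of KPYYF over KPF libraries (horizontal axis) with its standard error (bars) for Yap1 and the 10 G1 genes, 6 against 3 libraries; a filled point has an adjusted p under 0.05. Yap1 alone is filled, at -4.79, and the G1 genes lie between -0.90 for Ccnd1 and 1.25 for Cdkn2a.

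The D-type cyclins did not share a direction. Ccnd1 and Ccnd2 were lower on average in the Yap-deleted cells and Ccnd3 was higher, none past the adjusted threshold. Cyclin D1, the product of Ccnd1, is the D-type cyclin most closely tied to growth factor signals and lies on chromosome 7 from 144929931 to 144939925 (GRCm38, the assembly also called mm10, minus strand). Ccnd1 (ENSMUSG00000070348) stood at 1850, 1470, 3550, 1840, 1710 and 766 CPM in KPF libraries 4269, 4435, 4504h, 4504s, 4515 and 4601, and at 773, 725 and 1510 CPM in KPYYF libraries 4449, 4891 and 4938. The top value belonged to KPF 4504h, while KPF 4435 and KPF 4601 lay within the KPYYF range, so the groups overlapped. KPYYF over KPF, Ccnd1 had a log2 fold change of -0.90 (SE 0.42, unadjusted p = 0.0508, adjusted p = 0.312 in edgeR's test; exact permutation p = 0.167). Leaving out KPF 4504h brought it to -0.61, and leaving out KPYYF 4938 to -1.32, with adjusted p of 0.448 and 0.264. The unadjusted p of Ccnd1 was under 0.05 in 6 of 17 alternative fits.

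Cyclin D2 is encoded by Ccnd2 (ENSMUSG00000000184), on chromosome 6 from 127125162 to 127152193. Its level was 521, 1170, 1840, 1370, 1840 and 1020 CPM in the KPF libraries, in the order given for Ccnd1, and 839, 1150 and 438 CPM in the KPYYF libraries. KPF 4269 and KPYYF 4938 were the lowest libraries, 1 of each group, and KPYYF 4891 lay inside the KPF range. For Ccnd2 the log2 fold change was -0.68 (SE 0.40, adjusted p = 0.444 in edgeR's test; exact permutation p = 0.214), against -0.38 without KPYYF 4938 and -1.02 without KPYYF 4891.

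Cyclin D3 comes from Ccnd3 (ENSMUSG00000034165), on chromosome 17 from 47505051 to 47599691. Its KPF values were 76.6, 215, 135, 202, 181 and 212 CPM, and its KPYYF values 161, 371 and 343 CPM. KPYYF 4891 and 4938 lay above every KPF library, and KPYYF 4449 lay inside their range. Its log2 fold change was 0.78 (SE 0.35, unadjusted p = 0.0463, adjusted p = 0.298 in edgeR's test; exact permutation p = 0.131). The unadjusted p stayed under 0.05 in 10 of 17 alternative fits and was 0.192 without KPYYF 4891. The 3′ end of Ccnd3 overlaps Bysl on the other strand, and Bysl was at 18.3 to 37.2 CPM in KPF and 35.6, 32.0 and 47.7 CPM in KPYYF libraries (log2 fold change 0.56, adjusted p = 0.479 in edgeR's test). The strand setting of the counting is not given in the sources used here, so how reads over such overlaps were assigned is not known. Reads counted as ambiguous were 0.231 to 0.312% of all reads in each library. The 3′ ends of Ccnd1, Ccne2 and Cdk4 are overlapped in the same way by LTO1, Ints8 and Tspan31, with log2 fold changes of -0.30, -0.03 and 0.25.

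Within each library, the reads of the D-type cyclins were divided among the 3 genes. Ccnd3 held 3.13, 7.54, 2.44, 5.90, 4.86 and 10.6% of these reads in the KPF libraries, a mean of 5.74 ± 3.01% (SD, n = 6), and 9.07, 16.6 and 15.0% in the KPYYF libraries, a mean of 13.6 ± 3.97% (SD, n = 3). The shares of KPYYF 4891 and 4938 were above those of all KPF libraries, and KPF 4601 exceeded KPYYF 4449. The share of Ccnd2 was 39.3 ± 11.0% in KPF and 39.2 ± 17.5% in KPYYF libraries. Ccnd1 took 54.9 ± 13.3% and 47.3 ± 17.1%. Summed over the 3 genes, D-type cyclin reads came to 1998 to 5521 CPM in KPF and 1772, 2242 and 2292 CPM in KPYYF libraries, again overlapping. The reads of Ccnd2 per read of Ccnd1 ran from 0.281 in KPF 4269 to 1.33 in KPF 4601, and were 1.09, 1.58 and 0.29 in the KPYYF libraries. In both groups, then, this ratio varied widely between libraries. These ratios are descriptions, with no test.

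**Figure D2:**
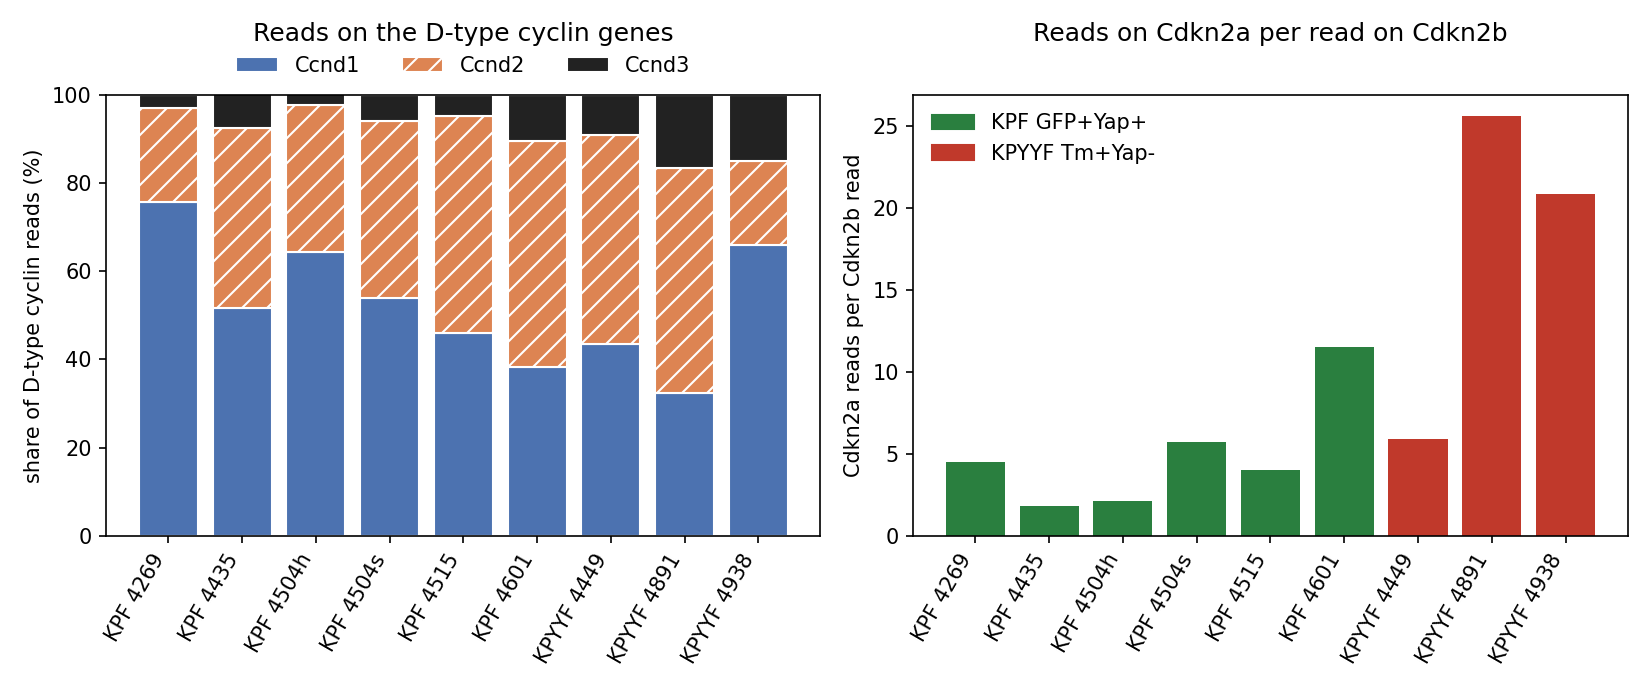
Left, share of D-type cyclin reads (%) on Ccnd1, Ccnd2 and Ccnd3 in each of the 9 libraries; right, reads on Cdkn2a per read on Cdkn2b in each library, KPF in green and KPYYF in red. The Ccnd3 share runs from 2.44 to 10.6% in KPF and from 9.07 to 16.6% in KPYYF libraries, and KPYYF 4891 and 4938 have 25.6 and 20.8 Cdkn2a reads per Cdkn2b read.

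The partner kinases of the D-type cyclins had the smallest fold changes of the set, and neither passed the test. Cdk4 (ENSMUSG00000006728), on chromosome 10 from 127063534 to 127067920, had 96.6, 88.2, 127, 78.2, 85.3 and 52.2 CPM in the KPF libraries and 90.1, 99.5 and 131 CPM in the KPYYF libraries. The KPYYF values lay in the upper part of the KPF range, and KPYYF 4938 slightly above it. This gave a log2 fold change of 0.28 (SE 0.30, adjusted p = 0.719 in edgeR's test; exact permutation p = 0.274), and 0.11 without KPYYF 4938. Cdk6 (ENSMUSG00000040274), on chromosome 5 from 3341485 to 3531008, had 389, 581, 341, 249, 496 and 266 CPM in the KPF libraries. Its KPYYF values of 346, 264 and 479 CPM all fell inside that range. Cdk6 had a log2 fold change of -0.09 (SE 0.32, adjusted p = 0.931 in edgeR's test; exact permutation p = 0.821), and the sign changed in 4 of 17 alternative fits. Reads of Cdk6 per read of Cdk4 were 2.68 to 6.58 in KPF and 3.84, 2.66 and 3.67 in KPYYF libraries.

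The E-type cyclins, which bind CDK2 at the end of G1, had few reads and the widest spread. Ccne1 (ENSMUSG00000002068), on chromosome 7 from 38097984 to 38107534, had 1 read in KPF 4269 (0.097 CPM), and 14.2, 18.6, 8.86, 13.9 and 3.49 CPM in the other KPF libraries. In the KPYYF libraries it had 2.72, 25.5 and 34.8 CPM. KPYYF 4891 and 4938 were above every KPF library, and KPYYF 4449 was below all KPF libraries but 1. Ccne1 had a log2 fold change of 1.09 with an SE of 1.00 (adjusted p = 0.658 in edgeR's test; exact permutation p = 0.464), and of 0.52 without KPYYF 4938. Ccne2 (ENSMUSG00000028212), on chromosome 4 from 11191351 to 11204779, had 14.3, 11.3, 15.1, 15.8, 1.66 and 3.63 CPM in KPF and 14.1, 6.54 and 22.6 CPM in KPYYF libraries. Only KPYYF 4938 lay outside the KPF range, above it. Ccne2 had a log2 fold change of 0.48 (SE 0.73, adjusted p = 0.813 in edgeR's test; exact permutation p = 0.488). It was 0.0027 without KPYYF 4938, 0.29 without KPF 4515 and 0.83 without KPYYF 4891.

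**Figure D3:**
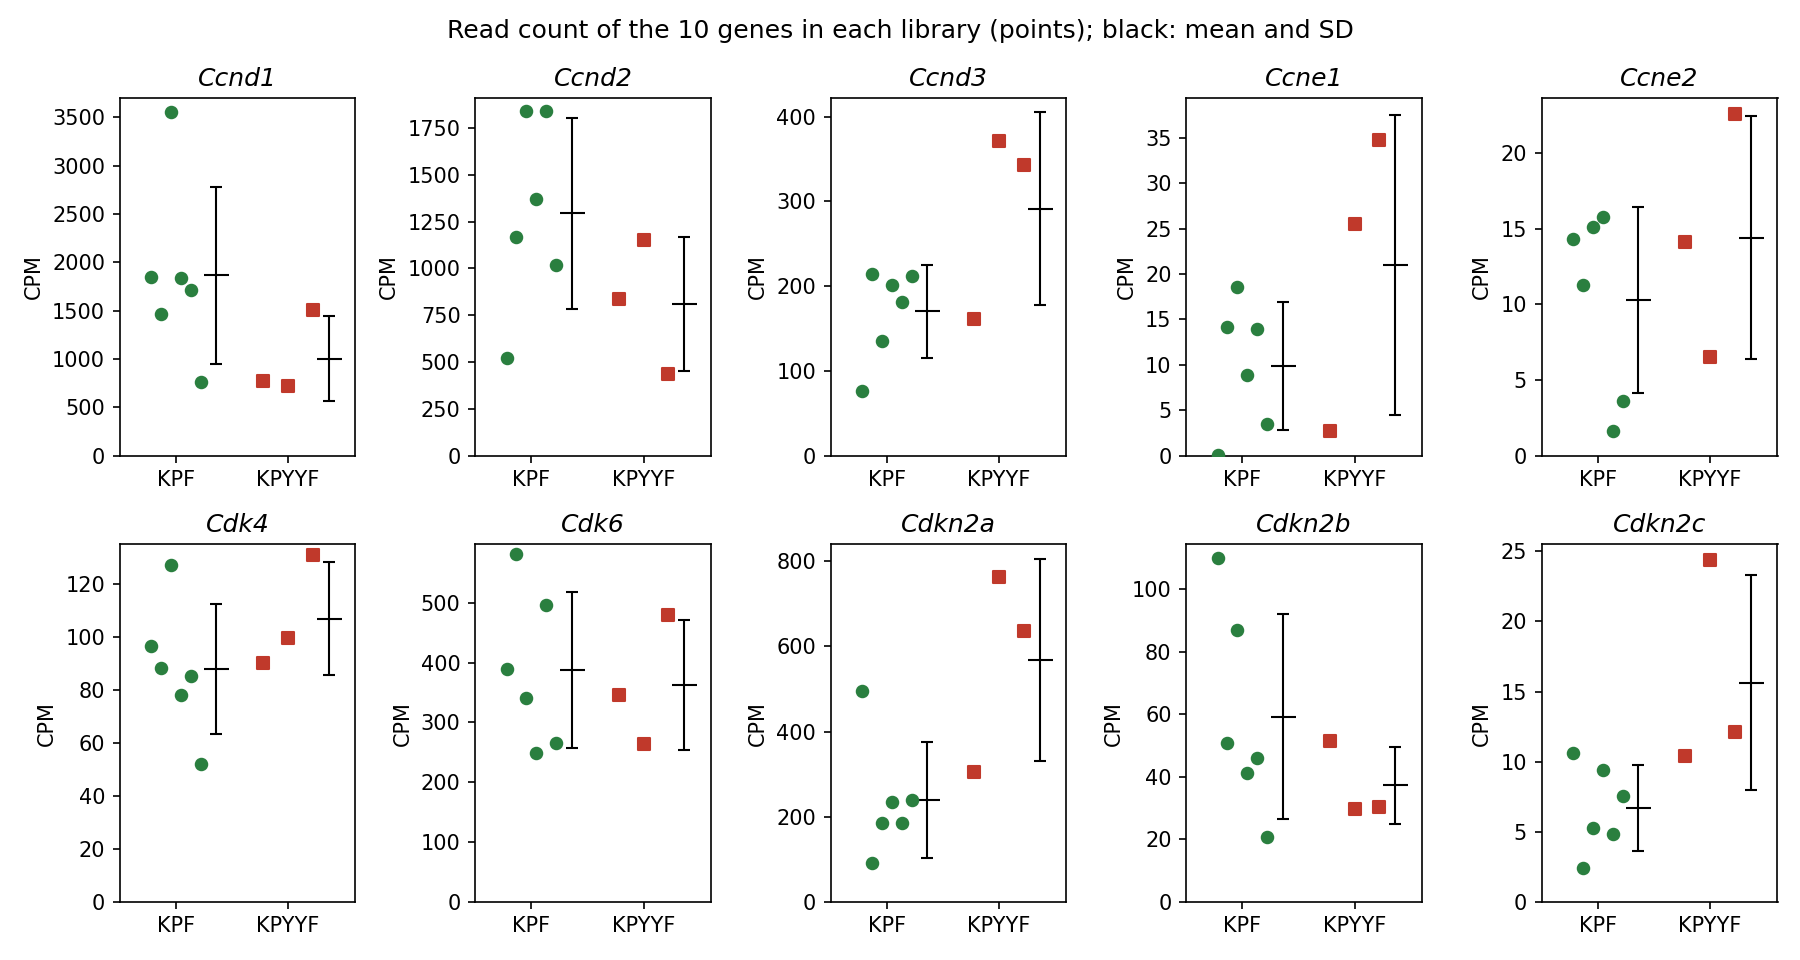
CPM of each G1 gene in each library (points, 6 KPF in green and 3 KPYYF in red), with the mean and SD of the group in black; each panel has its own vertical axis starting at 0. In every panel the groups overlap, and for Ccnd3, Ccne1, Cdkn2a and Cdkn2c, KPYYF 4891 and 4938 are above all KPF libraries.

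The INK4 genes held the largest positive fold changes of the set, those of Cdkn2a and Cdkn2c, while Cdkn2b, the neighbour of Cdkn2a, was lower on average. None passed the adjusted threshold. Cdkn2a (ENSMUSG00000044303) lies on chromosome 4 from 89274471 to 89294653 on the minus strand, and Cdkn2b from 89306299 to 89311039 on the same strand. Cdkn2a encodes the INK4 inhibitor p16INK4a from the transcript Cdkn2a-201 and p19ARF, which stabilizes p53, from Cdkn2a-202. In the GENCODE annotation the first exons of these transcripts are separate, at 89281986 to 89282192 and 89294334 to 89294653. Exon 2, from 89276645 to 89276985, and the start of exon 3 at 89274774 are common to both. A count of reads from the 3′ end therefore holds both products, and p16INK4a and p19ARF cannot be told apart in it.

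The RefSeq promoter table of GRCm38.p6 held windows of 250 bases before to 50 bases after the start for 7 of the 10 members, 10 windows in all. The windows of the INK4 pair are shown because Cdkn2a and Cdkn2b lie side by side and differed in opposite directions on average. They are written 5′ to 3′ on the minus strand, with a match to an E2F motif in capitals. The motif was searched on both strands as TTTCCCGC, TTTCGCGC, TTTGCCGC or TTTGGCGC.
Cdkn2a, promoter of the p19ARF first exon, chr4:89294570-89294869: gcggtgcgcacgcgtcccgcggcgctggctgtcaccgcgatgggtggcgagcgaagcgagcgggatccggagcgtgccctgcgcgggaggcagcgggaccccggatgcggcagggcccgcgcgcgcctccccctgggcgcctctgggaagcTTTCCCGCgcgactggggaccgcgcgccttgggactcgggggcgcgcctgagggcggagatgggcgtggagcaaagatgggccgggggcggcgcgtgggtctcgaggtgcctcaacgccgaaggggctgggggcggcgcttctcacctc
Cdkn2a, promoter of the p16INK4a first exon, chr4:89282143-89282442: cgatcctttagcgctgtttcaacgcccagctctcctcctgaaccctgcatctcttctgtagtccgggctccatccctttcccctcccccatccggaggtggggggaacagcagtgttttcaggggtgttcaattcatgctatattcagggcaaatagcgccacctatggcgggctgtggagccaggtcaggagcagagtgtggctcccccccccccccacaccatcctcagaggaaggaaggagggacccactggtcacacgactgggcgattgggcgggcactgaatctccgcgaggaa
Cdkn2b, chr4:89310983-89311282: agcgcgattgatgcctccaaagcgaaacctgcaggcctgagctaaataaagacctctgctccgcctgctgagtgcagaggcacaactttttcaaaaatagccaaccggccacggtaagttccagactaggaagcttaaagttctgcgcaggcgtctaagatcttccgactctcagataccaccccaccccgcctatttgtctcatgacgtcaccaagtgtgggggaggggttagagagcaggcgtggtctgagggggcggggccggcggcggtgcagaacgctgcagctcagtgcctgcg

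The p19ARF window held the E2F letters TTTCCCGC 99 bases before the start, and no other member window held an E2F match. Of 32851 promoters in the table, 2.26% held one. A TEAD motif, GGAATG on either strand, was found in 14.7% of all promoters, and among the members only in 1 of the windows of Ccnd3. The AP-1 motif TGANTCA was in 7.81% of all promoters and in no member window. The p19ARF window had 77% G and C and 45 CpG dinucleotides, the p16INK4a window 60.3% and 12, and the Cdkn2b window 57.7% and 18, where the median of all promoters was 52.7% and 7. A match of letters is a description and says nothing of binding.

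Cdkn2a stood at 494, 91.8, 186, 235, 186 and 240 CPM in KPF libraries 4269, 4435, 4504h, 4504s, 4515 and 4601, and at 305, 763 and 635 CPM in KPYYF libraries 4449, 4891 and 4938. KPYYF 4891 and 4938 were above every KPF library. KPYYF 4449 was above 5 of 6, and KPF 4269 was set apart from the rest of its group. The mean was 239 ± 136 CPM (SD, n = 6) in KPF and 567 ± 236 CPM (SD, n = 3) in KPYYF libraries. The log2 fold change of Cdkn2a was 1.25 (SE 0.43, unadjusted p = 0.0123, adjusted p = 0.170 in edgeR's test). By the exact permutation test, p was 0.0357, unadjusted. Over 17 alternative fits the adjusted p ran from 0.0674 with the DESeq2 Wald test to 0.389 without KPYYF 4891. It was 0.0683 with limma-voom, 0.0692 without KPF 4269 and 0.341 without KPYYF 4938. The unadjusted p was under 0.05 in 16 of 17 alternative fits and 0.0717 in the remaining one, which left out KPYYF 4891.

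Cdkn2b (ENSMUSG00000073802) encodes p15INK4b, an inhibitor induced by TGF-beta in many epithelia. It had 110, 50.9, 87.1, 41.2, 46.0 and 20.8 CPM in the KPF libraries, and 51.6, 29.8 and 30.5 CPM in the KPYYF libraries, all inside the KPF range. For Cdkn2b the log2 fold change was -0.67 (SE 0.48, adjusted p = 0.542 in edgeR's test; exact permutation p = 0.381), and -0.40 without KPF 4269. Per read of Cdkn2b, there were 4.49, 1.80, 2.13, 5.71, 4.04 and 11.5 reads of Cdkn2a in the KPF libraries. In the KPYYF libraries there were 5.91, 25.6 and 20.8, so that 4891 and 4938 were above all KPF libraries and 4449 was below KPF 4601. The high ratio of KPF 4601 came with the lowest Cdkn2b level of the 9 libraries and with the highest summed immune markers, 7220 CPM, whose part in it was not tested.

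Cdkn2c (ENSMUSG00000028551), on chromosome 4 from 109660876 to 109667189, encodes p18INK4c. It had 10.6, 2.45, 5.30, 9.43, 4.86 and 7.56 CPM in the KPF libraries, and 10.4, 24.4 and 12.1 CPM in the KPYYF libraries. KPYYF 4449 lay just under KPF 4269, and the other KPYYF libraries were above all KPF libraries. Cdkn2c had a log2 fold change of 1.22 (SE 0.63, adjusted p = 0.369 in edgeR's test; exact permutation p = 0.0357, unadjusted). Without KPYYF 4891 it was 0.75 (unadjusted p = 0.356). At this depth the KPF levels of Cdkn2c rest on few reads per library.

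Across the 9 libraries, the pair of members whose log2 CPM moved most closely together was Cdkn2a and Cdkn2c, with a Pearson r of 0.94. Next came Ccnd3 and Ccne1 with 0.801 and Ccnd1 and Cdkn2b with 0.67. The lowest value was -0.829, for Ccnd3 and Cdkn2b, followed by -0.613 for Ccnd2 and Cdkn2a. The libraries share their group, depth and composition, and these values are descriptions. Among 8890 genes with a mean of at least 10 CPM, those most like Cdkn2a over the 9 libraries were Haus6 (r = 0.937), Magoh (0.936), Ddx27 (0.936), Smap1 (0.931) and Nop14 (0.927). None of these 5 had an adjusted p under 0.05 between the groups, the lowest being 0.251 for Nop14. Haus6 and Magoh lie on chromosome 4, like Cdkn2a.

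Around Cdkn2a, 4 of 39 annotated genes within 500 kb had enough reads to test, and none passed the adjusted threshold. Mtap, at -93.4 kb toward lower coordinates, encodes methylthioadenosine phosphorylase, a gene often deleted together with CDKN2A in human tumors. It had 167, 107, 101, 68.3, 65.9 and 77.2 CPM in the KPF libraries and 109, 169 and 281 CPM in the KPYYF libraries, with KPYYF 4891 and 4938 above all KPF libraries. The log2 fold change of Mtap was 0.93 (SE 0.36, unadjusted p = 0.0227, adjusted p = 0.219 in edgeR's test). Gm12602, a noncoding transcript at -146 kb, had 0 to 0.511 CPM in the KPF libraries and 18.9, 4.36 and 1.53 CPM in the KPYYF libraries (unadjusted p = 0.00342, adjusted p = 0.109 in edgeR's test). Wincr1, on the same side at -190 kb, had a log2 fold change of -0.65. Cdkn2b lay on the other side at 11.6 kb, with its log2 fold change of -0.67. Around Ccnd1, 7 of 23 genes were tested, with a median log2 fold change of -0.64, and Ano1 was the only one under an unadjusted p of 0.05, at -1.34 (SE 0.56, adjusted p = 0.255 in edgeR's test). Around Ccnd2 and Cdk6, 6 of 32 and 11 of 35 genes were tested, with medians of 0.02 and 0.08 and none under an unadjusted p of 0.05.

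The other genes of the pathway fell into lists by role. The other CDK inhibitors were the 3 CIP/KIP genes, which bind CDK2 complexes, and Cdkn2d, the remaining INK4 gene. Among these 4 genes, 3 had higher values and 1 a lower value. Their median of 0.39 turned to -0.0099 without KPYYF 4891. With all 9 libraries, 0 of 4 were at an adjusted p under 0.05 in edgeR's test. At an unadjusted p under 0.05, 1 of 4 was higher and 1 lower, beside 6.10% and 10% of all genes tested. Cdkn1a, the p53 target p21, had 82.6 to 372 CPM in KPF and 47.4, 90.7 and 80.3 CPM in KPYYF libraries. Its log2 fold change was -1.28 (SE 0.44, unadjusted p = 0.0121, adjusted p = 0.169 in edgeR's test). Cdkn1c, the imprinted inhibitor p57, was at 2.12 (adjusted p = 0.243), Cdkn2d at 0.54 and Cdkn1b, p27, at 0.25. The RB family, Rb1, Rbl1 and Rbl2, had 3 of 3 genes higher, with a median of 0.55 and none under an unadjusted p of 0.05. Without KPYYF 4449, 2 were higher and 1 lower and the median was 0.16. Of 10 E2F and DP factors 7 were higher, with a median of 0.51, or 0.090 without KPYYF 4938. At an unadjusted p under 0.05, 2 of 10 were higher and 0 lower, beside 6.10% and 10% of all genes tested. These were E2f1 at 1.76 (adjusted p = 0.159 in edgeR's test) and E2f6 at 1.10. Tfdp1, at 0 to 8.36 CPM in KPF libraries, was at -3.16 and Tfdp2 at -0.63, both without passing.

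Cyclin A, CDK1, CDK2 and their activators were higher for 7 of 7 genes, with a median log2 fold change of 0.69. Ccna2, cyclin A of S phase, had 7.08 to 31.7 CPM in KPF and 87.4, 61.5 and 80.8 CPM in KPYYF libraries, which did not overlap. Its log2 fold change was 1.90 (SE 0.42, adjusted p = 0.0514 in edgeR's test). Cdk1 was at 1.04, and Mnat1 and Cdc25a were the lowest of the list, at 0.45 and 0.46. Of the cyclin turnover genes, 4 of 9 were higher, with a median of -0.28, which was -0.16 without KPYYF 4938 and -0.18 without KPF 4601. Skp2, the ubiquitin ligase subunit that removes p27, was at 1.66 (adjusted p = 0.270 in edgeR's test) and its cofactor Cks1b at 1.05 (adjusted p = 0.127), both under an unadjusted p of 0.05. At that level 6.10% of all genes tested were higher. The lowest were Cks2 at -2.02 (SE 1.58) and Ambra1, a ligase receptor for D-type cyclins, at -0.80. Cks2 had few reads, with 0.87 to 7.62 CPM in KPF and 0, 0.98 and 1.42 CPM in KPYYF libraries. Known regulators of the INK4 locus, mostly Polycomb proteins and T-box factors, were higher for 8 of 13 genes with a median of 0.02. Their extremes were Tbx2 at 2.36 (SE 1.76) and Rnf2 at 0.86, and Tbx3 at -3.55 (SE 2.04) and Ets2 at -0.77. Tbx2 had 0 to 3.63 CPM in KPF and 0, 33.3 and 0.11 CPM in KPYYF libraries, so KPYYF 4891 alone held its high value. Tbx3 had 0 to 6.32 CPM in KPF and 0.83, 0 and 0 CPM in KPYYF libraries. In edgeR's test 0 of 13 had an adjusted p under 0.05. At an unadjusted p under 0.05, 2 were higher and 0 lower, beside 6.10% and 10% of all genes tested. At an adjusted p under 0.05, the DESeq2 Wald test called 0 genes among the other CDK inhibitors, the RB family and the INK4 regulators. It called 1 gene as higher in each of the cyclin A, E2F and turnover lists, and 1.96% of all genes.

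Genes that E2F switches on for DNA replication were higher for 19 of 20, with a median of 0.71. At an unadjusted p under 0.05, 5 of 20 were higher and 0 lower, beside 6.10% and 10% of all genes tested. Without KPYYF 4938, 1 of 20 was higher at that level. In the 6 libraries with at least 1000 Xist reads this number was 2, and the list median was 0.48. Cdt1, which licenses replication origins, was the single gene of all these pathway lists with an adjusted p under 0.05. At that threshold 0.305% of all genes tested were higher and 0.794% lower. Cdt1 had 27.8 to 34.9 CPM in the 6 KPF libraries and 64.2, 116 and 70.4 CPM in the KPYYF libraries, a log2 fold change of 1.44 (SE 0.30, adjusted p = 0.0357 in edgeR's test). In 8 of the 9 fits that each left out 1 library, all but the one without KPYYF 4449, its adjusted p was above 0.05, from 0.0528 to 0.170. Summing 4504h and 4504s, the libraries of 1 mouse number, gave 0.0576, and it was 0.201 in the 6 libraries with at least 1000 Xist reads. Cdc6, the partner of Cdt1 at origins, was at 1.66, while Mcm2 at -0.71 and Mcm7 at 0.27 were the lowest. Genes of G2 and mitosis were higher for 15 of 15, with a median of 1.40, and 14 had an unadjusted p under 0.05, where 6.10% of all genes tested were higher at that level. That number was 10 of 15 without KPYYF 4891 and also without KPYYF 4938. In edgeR's test 0 of 15 had an adjusted p under 0.05, against 7 of 15 in the DESeq2 Wald test and 1 in limma-voom, which called 1.96% and 0.305% of all genes higher. The list ran from Bub1 and Mki67, both at 0.95, to Ccnb2 at 1.95 and Aurkb at 3.08. Their summed level was 306 to 734 CPM in KPF and 1090 to 1560 CPM in KPYYF libraries. In 11 of 15 the groups did not overlap, where 3.92% of all genes tested did so in that direction.

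**Figure D4:**
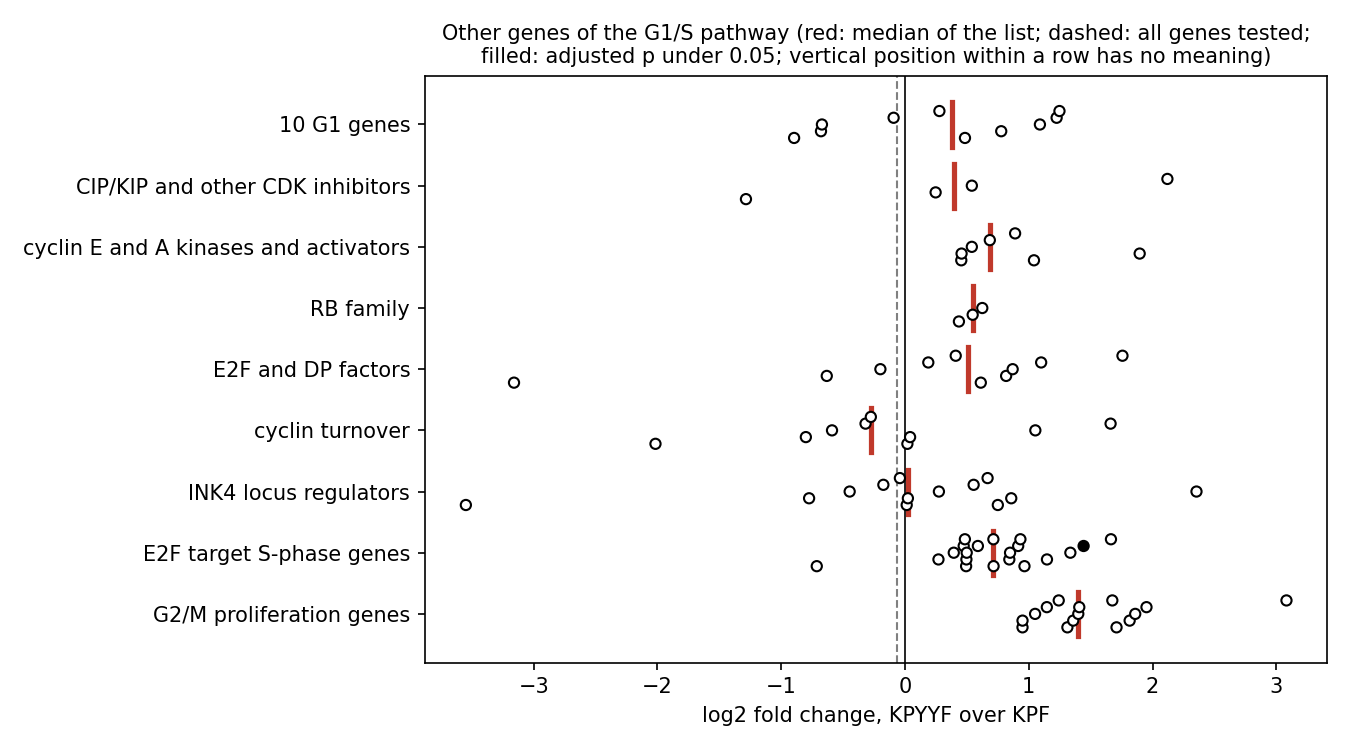
Log2 fold change of KPYYF over KPF (horizontal axis) of each tested gene in the G1 set and 8 pathway lists; red bars are list medians, the dashed line is the median of all genes tested and a filled point has an adjusted p under 0.05. List medians run from -0.28 for cyclin turnover to 1.40 for G2/M genes, and Cdt1 is the filled point.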

How the data were processed

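RNA of FACS-sorted PDAC cells was read as QuantSeq 3′ FWD libraries. The authors deposited raw read counts per Ensembl gene, 1 file for each of 9 libraries. The submitters' processing notes name STAR, HTSeq and mm10, and versions, annotation and strand setting are not given in the sources used here. The methods section describes BeadChips, although the files hold whole-number counts whose totals differ between libraries. Of all reads, 38.5 to 42.0% fell on genes in KPF and 37.3 to 38.2% in KPYYF libraries. Reads without a unique alignment were 43.8 to 48.5% in KPF and 49.2 to 53.4% in KPYYF libraries. The groups did not overlap in either measure, whose part in the fold changes was not tested. Over all libraries, 8.63 to 16.0% of reads lay on no feature. Of 47643 genes, 47224 were matched to a symbol in GENCODE M21 (GRCm38), which also gave positions.

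Counts were normalized by TMM and tested with edgeR 4.0.16 (quasi-likelihood, robust, sum of at least 100 reads, no covariates) in R 4.3.3. Single CPM values used a prior count of 2 on the log2 scale. The alternatives were DESeq2 1.42.0, limma 3.58.1 (voom with quality weights), RLE and upper quartile factors, no filter, filterByExpr, libraries 4504h and 4504s summed, the 6 libraries with at least 1000 Xist reads, and each library left out in turn, 17 in all. The scripts were tested on simulated counts. Xist had 71 to 159 reads in KPF libraries 4269, 4515 and 4601 and at least 3452 in the others. No 2 libraries were identical. The labels give mouse numbers, but not whether 4504h and 4504s are separate tumors, so p values measure the spread between these libraries. Named genes are the members, Yap1, in each pathway list every gene with an adjusted p under 0.05 and its 2 highest and 2 lowest log2 fold changes, markers a result turns on, and the 5 genes most like the member with the smallest unadjusted p. Genes beside a member or over its 3′ end were chosen by position. The members and lists were chosen with earlier results of these data known. An allele that both groups carry is not reported here. Figures were drawn with matplotlib 3.10.9.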

Additional observations from a re-analysis of the deposited data

Results flagged for a closer look

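Among 20 quantities of the 6 KPF libraries that were each checked for a library far from the others, 2 had one, where chance marks about 1 in 20 groups. Cdkn2a in KPF library 4269 stood at 494 CPM, above the 91.8 to 240 CPM of the other KPF libraries and between the KPYYF values. KPF library 4601 had 8264587 reads on genes, the fewest of its group.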

How the results depend on the processing

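The 10 G1 genes gave 0 calls at an adjusted p under 0.05 in all 17 alternatives, and 9 kept their sign in each. Cdk6 reversed to 0.094 with limma-voom, 0.060 without KPF 4435, 0.022 without KPF 4515 and 0.093 without KPYYF 4891, and was -0.34 to 0.093 when 1 library was left out. Over all genes, 43 were higher and 112 lower at an adjusted p under 0.05. These counts were 269 and 928 with the DESeq2 Wald test, 88 and 219 without a filter on low counts, 25 higher with 4504h and 4504s summed, 44 lower with limma-voom, 6 and 31 with the libraries of at least 1000 Xist reads, and 6 to 75 higher and 13 to 198 lower when 1 library was left out, with both counts highest without KPYYF 4449. Yap1 kept its direction, with -4.56 in limma-voom (adjusted p = 0.0771) and -5.78 to -4.31 when 1 library was left out. The list median of INK4 locus regulators was 0.32 in the libraries of at least 1000 Xist reads and ran from -0.039 to 0.35 when 1 library was left out, and that of E2F and DP factors from 0.090 to 0.73. Cdt1 passed in 7 of 17 alternatives. The cause was not tested. No paired analysis was possible because the groups share no mouse number. The groups hold 6 and 3 libraries with a common biological coefficient of variation of 0.825, which limits the precision of every fold change, and Ccne1, Ccne2 and Cdkn2c have few reads.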
